A study of Homo sapiens with 4 samples.

Results

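The 10 genes described here are transcripts that the kinase ERK is known to induce. They are the MAP kinase phosphatase genes DUSP4, DUSP5 and DUSP6, the Sprouty genes SPRY1, SPRY2 and SPRY4, the Sprouty-related genes SPRED1 and SPRED2, and the ETS transcription factor genes ETV4 and ETV5. They were taken by symbol from a table of 17215 genes, and all 10 were found and passed the filter on low counts. The lines compared were Cal51, a human triple-negative breast cancer line, and its derivative Cal51R, resistant to the anthracycline doxorubicin. Polyadenylated RNA was sequenced in 2 libraries per line. The series set out to find deubiquitinases tied to resistance. Cal51R is a single resistant line. The labels used here do not state how resistance was raised, whether drug was present at harvest, or whether replicate libraries are separate cultures. The p-values below therefore rest on a spread that may be technical.

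In this pathway a growth factor binds a receptor tyrosine kinase, and the signal passes through RAS, RAF and MEK to ERK. ERK then induces its own restraints: DUSP proteins remove phosphate from MAP kinases, while Sprouty and SPRED proteins act higher up, between the receptor and RAF. ETV4 and ETV5 belong to the PEA3 group of ETS factors and carry FGF and EGF signals to target genes. The repressor capicua, which ERK inactivates, is known to hold down ETV4, ETV5, DUSP6 and other genes of this group.

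The libraries held 17852484 to 21637102 reads, and 3 reads, taken as the limit of detection, came to 0.139 to 0.175 CPM, a read count scaled to library size. The 10 genes had 121 to 4162 reads in each library. Levels are given as CPM on totals scaled by TMM, a factor computed on the assumption that most genes do not change, and as mean ± SD with n = 2. Genes rose or fell where edgeR's quasi-likelihood test gave an adjusted p under 0.05 over all 13674 genes tested, which 70.8% of them did, 35.3% higher and 35.5% lower in Cal51R. Scaling to library totals in place of TMM moved the median fold change of all genes from 0.0151 to 0.215 (log2), and the higher genes then made up 64.7% of those passing, against 49.9%. The 5 epithelial markers summed to 12560 and 14330 CPM in Cal51 and 6959 and 5811 CPM in Cal51R. Of them, KRT8 and KRT18 lay between 2341 and 8532 CPM in all libraries and EPCAM between 76.0 and 182.0 CPM, while CDH1 did not exceed 2.92 CPM. KRT19 went against the sum, from 3.50 and 3.38 CPM to 83.3 and 77.99 CPM, and so did CDH1, from 1.23 and 0.989 CPM to 1.75 and 2.92 CPM. Of 7 leukocyte markers CD3E had at most 1 read in any library and PTPRC 3 to 12 reads, and the summed level of the list was 17.1 and 17.5 CPM in Cal51 and 6.95 and 8.68 CPM in Cal51R. That sum followed CD68, at 11.6 and 11.2 CPM in Cal51 and 1.43 and 1.95 CPM in Cal51R, and CD14, whereas PTPRC, LYZ and ITGAM rose. The 8 fibroblast markers summed to 1759 and 1618 CPM in Cal51 and 406.0 and 395.5 CPM in Cal51R, nearly all COL1A2, with DCN, LUM, POSTN and FAP at 4 reads or fewer. PDGFRB fell from 71.6 and 66.5 CPM in Cal51 to 0.424 and 0.603 CPM in Cal51R, and COL1A1 and COL3A1 also fell. The 5 endothelial markers summed to 66.2 and 61.5 CPM in Cal51 and 140.4 and 146.8 CPM in Cal51R, mostly PECAM1, and KDR had at most 1 read. CDH5 also rose, from 3 and 6 reads to 80 and 83. TEK went against the sum, from 185 and 136 reads to 22 and 24, and VWF did not pass. The part of these shifts in the results below was not tested.

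The ERK feedback genes did not move together. In Cal51R, 5 of the 10 rose, 4 fell and DUSP4 did not pass, so that 9 of 10 changed, beside 70.8% of all genes tested. Leaving out either Cal51 library left 3 higher and 3 lower, beside 60.1% (without replicate 1) and 57.9% (without replicate 2) of all genes. In bulk RNA, fewer cells of a kind and less RNA per cell cannot be told apart. The largest rises were those of ETV5, 3.51-fold, and SPRY4, 2.23-fold, and the largest falls those of SPRY2, 2.52-fold, and DUSP6, 2.07-fold. DUSP5 fell 1.61-fold, and the other 5 genes differed by 1.15-fold to 1.23-fold. The median log2 fold change of the 10 genes was 0.25, against 0.02 for all genes tested. In all 10 genes both libraries of one line lay above both of the other, which was so for 85.0% of tested genes. The log2 fold changes had SEs of 0.07 to 0.15.

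**Figure D1:**
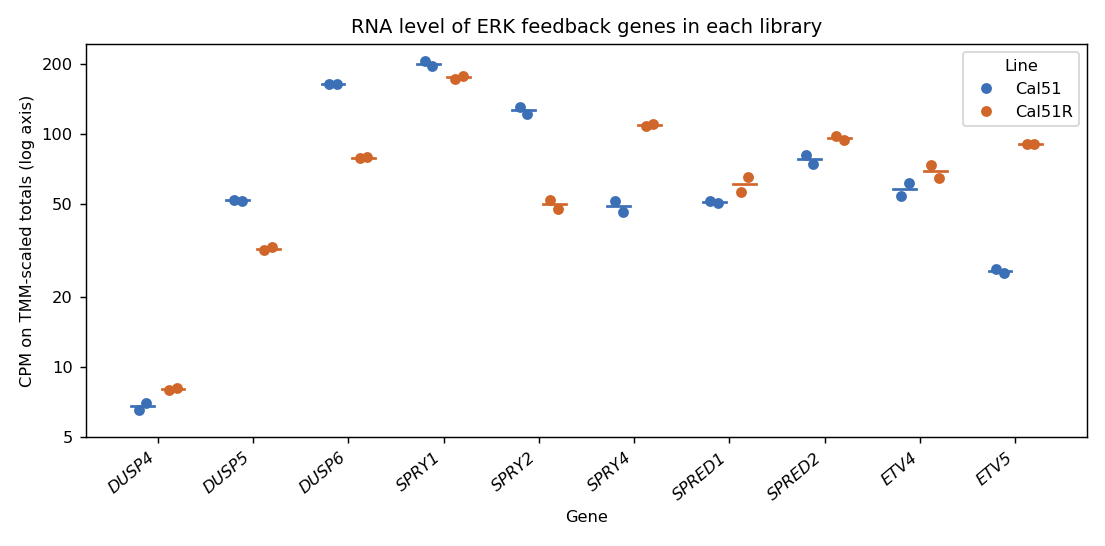
RNA level of the 10 genes in each library, in CPM on TMM-scaled totals (log axis), with points for single libraries and bars for the mean of 2 libraries of a line. ETV5 and SPRY4 are higher and DUSP5, DUSP6 and SPRY2 lower in both Cal51R libraries, while DUSP4, SPRY1, SPRED1, SPRED2 and ETV4 differ little.

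Both detected differences among the phosphatase genes were decreases. DUSP6 encodes a cytoplasmic phosphatase that is selective for ERK (gene 1848, GRCh38 chromosome 12, 89347235 to 89352501). DUSP6 stood at 164.3 and 163.7 CPM in the Cal51 libraries and at 79.3 and 79.4 CPM in those of Cal51R. Both Cal51R libraries were far below both Cal51 libraries, and the 2 libraries of a line differed by less than 1 CPM. DUSP6 changed by -1.05 ± 0.07 (log2 with its SE), at an edgeR adjusted p of 2.01e-09, and 22.4% of tested genes had a larger absolute change.

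DUSP5, whose product acts on ERK in the nucleus (gene 1847, chromosome 10, 110497907 to 110511533), was at 52.1 and 51.7 CPM in Cal51 and 31.7 and 32.8 CPM in Cal51R. The lines did not overlap, and DUSP5 fell by 0.69 ± 0.09 on the log2 scale (edgeR adjusted p = 2.63e-06). DUSP4, a nuclear phosphatase for ERK and other MAP kinases (gene 1846, chromosome 8, 29333064 to 29350684), was the lowest of the 10 genes, with 133 and 121 reads in the parental libraries and 151 and 175 in the resistant ones. These reads came to 6.55 and 7.04 CPM in Cal51 and to 8.01 and 8.12 CPM in Cal51R, so the Cal51R libraries were the higher ones by a small margin. The log2 fold change of DUSP4 was 0.25 with a 95% interval of -0.06 to 0.56 (edgeR adjusted p = 0.139; 0.0119 to 0.45 over its alternatives). DUSP4 passed with library totals, at 0.45 (edgeR adjusted p = 0.0119), and on log2(FPKM + 1) and log2(FPKM + 0.1), at 0.26 and 0.42 (limma adjusted p = 0.0346 and 0.0428), before the shift of the median gene is taken off.

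The 3 Sprouty genes went separate ways. Sprouty proteins are cytoplasmic inhibitors of receptor tyrosine kinase signalling that are themselves induced by it. SPRY2 (gene 10253, chromosome 13, 80335976 to 80341126) was at 130.8 and 121.7 CPM in Cal51 and at 52.2 and 47.9 CPM in Cal51R. Every Cal51R library thus held less than the lowest Cal51 library, and SPRY2 changed by -1.34 ± 0.08 (log2 with its SE), at an edgeR adjusted p of 3.93e-10.

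SPRY4 (gene 81848, chromosome 5, 142310430 to 142325021) moved the opposite way, from 51.5 and 46.4 CPM in Cal51 to 107.8 and 110.6 CPM in Cal51R. Its 2 Cal51R libraries lay well above those of Cal51, and SPRY4 changed by 1.16 ± 0.08 (log2 with its SE), at an edgeR adjusted p of 2.7e-09. SPRY1 (gene 10252, chromosome 4, 123396795 to 123403760), the most abundant of the 10 genes, was at 204.9 and 196.2 CPM in Cal51 and 172.4 and 177.4 CPM in Cal51R. The lines were close and did not overlap, and SPRY1 fell by 0.20 ± 0.07 (log2; edgeR adjusted p = 0.0219; 0.0139 to 0.981 over its alternatives). The fall of SPRY1 depended on the scaling: with library totals its log2 fold change was 0.00 (edgeR adjusted p = 0.981), and on log2(FPKM + 1) it was -0.02 (limma adjusted p = 0.773). Its call was also lost without Cal51 replicate 1 (-0.18; edgeR adjusted p = 0.213), without Cal51 replicate 2 (-0.24; edgeR adjusted p = 0.0834) and with a filter of 5 CPM in 2 libraries (-0.16; edgeR adjusted p = 0.0528).

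SPRED1 and SPRED2, which encode membrane-bound inhibitors that bring the RAS-inactivating protein neurofibromin to RAS, were both a little higher in Cal51R. SPRED2 (gene 200734, chromosome 2, 65307175 to 65432599) was at 81.5 and 74.7 CPM in Cal51 and 97.8 and 94.4 CPM in Cal51R. SPRED2 rose by 0.30 ± 0.08 (log2; edgeR adjusted p = 0.00291; 2.23e-05 to 0.117 over its alternatives), a call that was lost without Cal51 replicate 2 (0.23; edgeR adjusted p = 0.117). SPRED1 (gene 161742, chromosome 15, 38252836 to 38357249) was at 51.7 and 50.8 CPM in Cal51 and 56.6 and 65.7 CPM in Cal51R, where the 2 libraries lay farther apart than the lower one did from Cal51. SPRED1 rose by 0.26 ± 0.09 (log2; edgeR adjusted p = 0.018; 0.000246 to 0.174 over its alternatives). The call for SPRED1 was lost with DESeq2 (adjusted p = 0.0518). It was also lost on leaving out Cal51 replicate 1 (0.26; edgeR adjusted p = 0.0948), Cal51 replicate 2 (0.23; 0.132) or Cal51R replicate 2 (0.14; 0.174).

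The ETS factor genes rose, one much more than the other. ETV5 (gene 2119, chromosome 3, 186046314 to 186109089) was at 26.3 and 25.3 CPM in Cal51 and at 90.4 and 90.8 CPM in Cal51R. This was the largest change among the 10 genes, at 1.81 ± 0.09 (log2 with its SE; edgeR adjusted p = 1.33e-11), and 10.5% of tested genes had a larger one in either direction. ETV4 (gene 2118, chromosome 17, 43527846 to 43546340) was at 54.4 and 61.8 CPM in Cal51 and 73.9 and 65.0 CPM in Cal51R, so that the nearest libraries of the 2 lines almost met. ETV4 rose by 0.26 ± 0.09 (log2; edgeR adjusted p = 0.0195; 0.000151 to 0.31 over its alternatives). The call for ETV4 was lost without Cal51 replicate 1 (0.16; edgeR adjusted p = 0.31) and without Cal51R replicate 1 (0.16; edgeR adjusted p = 0.111). The span of ETV4 overlaps that of DHX8, a helicase gene, which fell from 126.7 ± 3.19 to 98.5 ± 0.967 CPM. The call for DHX8 was lost with library totals (edgeR adjusted p = 0.0633). It was also lost on log2(FPKM + 1) and log2(FPKM + 0.1) (limma adjusted p = 0.111 and 0.110). Whether counting used strand is not stated in the sources used here, so reads in the shared span may be assigned to either gene.

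**Figure D2:**
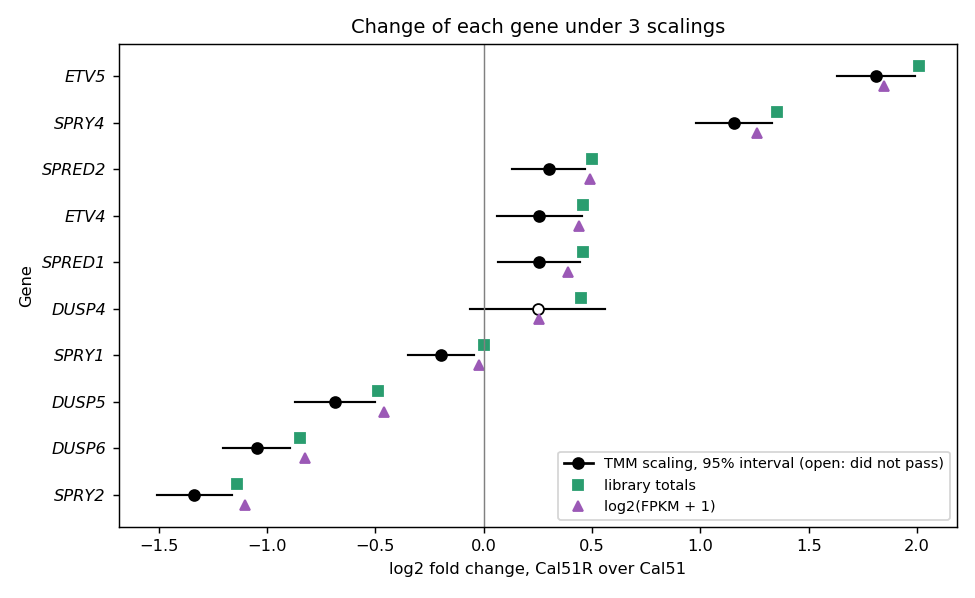
Log2 fold change of each gene, Cal51R over Cal51, with TMM scaling (circles, bars for the 95% interval), with library totals (squares) and on log2(FPKM + 1) (triangles). ETV5, SPRY4, DUSP5, DUSP6 and SPRY2 stay on their side of 0 under all 3 scalings, whereas SPRY1 moves from -0.20 to 0.00 with library totals.

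The 250 bases before the starts of DUSP6 and SPRY2 are shown because both genes fell at least 2-fold and their windows hold the motif matches found. The sequences are from RefSeq (GRCh38.p14), written 5′ to 3′ on the strand of the gene, with motif matches in capitals. Promoter windows were matched for 6 of the 10 genes, without DUSP4, DUSP5, ETV4 and ETV5. The SPRY4 window that was searched belongs to a start inside the span of that gene given above.
DUSP6 (chr12:89352502-89352751, minus strand): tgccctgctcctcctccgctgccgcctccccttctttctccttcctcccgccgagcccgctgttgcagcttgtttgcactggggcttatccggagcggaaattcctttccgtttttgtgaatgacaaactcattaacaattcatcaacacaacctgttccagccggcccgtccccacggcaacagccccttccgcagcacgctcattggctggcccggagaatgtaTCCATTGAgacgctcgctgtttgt
SPRY2 (chr13:80341127-80341376, minus strand): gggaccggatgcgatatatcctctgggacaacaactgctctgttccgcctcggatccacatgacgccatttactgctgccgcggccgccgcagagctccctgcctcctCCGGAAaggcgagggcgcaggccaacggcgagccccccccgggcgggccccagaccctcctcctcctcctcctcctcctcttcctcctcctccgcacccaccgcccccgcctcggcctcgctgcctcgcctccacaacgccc

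Windows of 250 bases before to 50 after the start were searched on both strands for 4 motifs, and no match overlapped another motif. The ETS core was searched only in the form CCGGAA. SPRY2 held this form, as 1 of 6 windows, against 17.6% of 27305 RefSeq promoter windows and 29.0% of the 11113 windows of tested genes. The octamers bound by capicua, TGAATGAA, TGAATGGA, TCAATGAA and TCAATGGA, were found in DUSP6, as 1 of 6, against 3.86% of all windows and 2.44% of those of tested genes. The DUSP6 window held the octamer on its reverse strand at 2 places, at -24 to -17 from the start, shown above, and at 2 to 9 after it. The AP-1 site TGANTCA and the cAMP response element TGACGTCA were in none of the 6 windows. They were in 7.76% and 1.98% of all windows, and in 4.47% and 3.08% of those of tested genes. A match is a description of these letters and was not tied to the change of any gene.

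**Figure D3:**
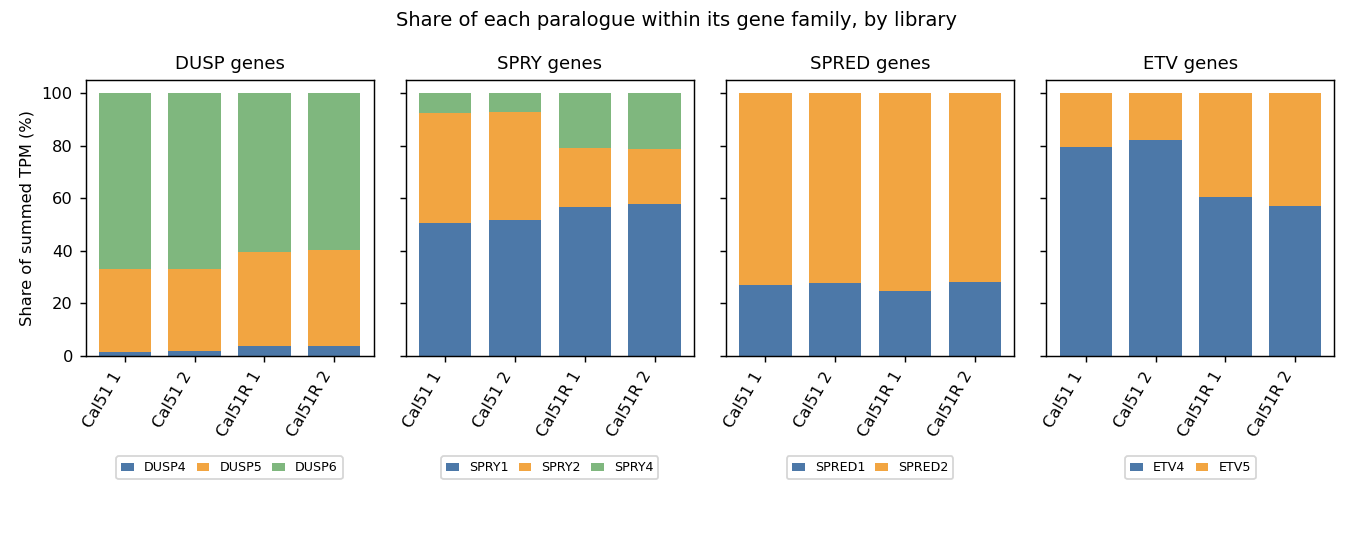
Share of each gene in the summed TPM of its family, in percent, for each library. SPRY2 shrinks and SPRY4 grows within the Sprouty genes, and ETV5 grows from 19.2% to 41.2% of the ETV genes, while the SPRED shares overlap between the lines.

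Per length and without TMM scaling, the summed level of the 10 genes overlapped between the lines while its make-up differed. Levels of different genes were compared in the authors' TPM, which scales for transcript length and library size. Summed over the 10 genes, TPM was 566.3 and 526.7 in Cal51 and 542.1 and 572.1 in Cal51R, with no separation of the lines. TPM carries no TMM factor, so the shift of the median gene is not taken off when these sums are compared between lines. ETV4 and ETV5 together went from 69.4 ± 1.90 to 134.8 ± 0.481 TPM, and the SPRED genes from 51.9 ± 3.78 to 75.5 ± 4.34 TPM. With TMM scaling, SPRED1 and SPRED2 rose 1.19-fold and 1.23-fold. The 3 DUSP genes together went from 142.8 ± 5.57 to 91.3 ± 5.41 TPM. The Sprouty genes, at 297.0 and 267.9 TPM in Cal51 and 247.1 and 263.9 TPM in Cal51R, came close to overlapping.

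Within the Sprouty genes, the TPM of SPRY2 was 5.65 and 5.82 times that of SPRY4 in the Cal51 libraries, and 1.08 and 0.974 times in those of Cal51R. These ratios are taken within a library and do not depend on how libraries are scaled. SPRY2 thus held 41.7% ± 0.555 of Sprouty TPM in Cal51 and 21.7% ± 1.24 in Cal51R, while SPRY4 went from 7.27% ± 0.254 to 21.1% ± 0.358. SPRY1 was the most abundant Sprouty gene in every library, at 51.1% ± 0.809 and 57.2% ± 0.878. ETV4 exceeded ETV5 in every library, by 3.88 and 4.56 times in Cal51 and by 1.53 and 1.34 times in Cal51R. DUSP6 held 67.0% ± 0.0289 of the TPM of the 3 DUSP genes in Cal51 and 60.1% ± 0.493 in Cal51R. SPRED2 held 72.6% ± 0.725 and 73.6% ± 2.58 of SPRED TPM, and here the libraries of the lines overlapped.

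The order of the levels was flatter in Cal51R. In Cal51 the genes ran from SPRY1 at 144.1 TPM through SPRY2, DUSP6, ETV4, DUSP5, SPRED2, SPRY4, SPRED1 and ETV5 to DUSP4 at 2.57 TPM, and of these neighbours in the order only SPRED1 and ETV5 had overlapping libraries. In Cal51R, SPRY1 again came first at 146.3 TPM and ETV4 second at 79.3 TPM. The next 5 genes, SPRED2, ETV5, SPRY2, DUSP6 and SPRY4, lay between 53.9 and 55.5 TPM, and each overlapped the next in the order. The ratio of DUSP6 to ETV5 was 7.05 and 7.31 in the Cal51 libraries and 0.99 and 0.987 in those of Cal51R. DUSP5, SPRED1 and DUSP4 followed at 32.8, 19.96 and 3.62 TPM.

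The chromosomal surroundings of the 10 genes were described by the 3 nearest tested protein-coding genes on each side of each. Of these 60 genes, 21 rose and 26 fell, beside 35.3% and 35.5% of all genes tested. The balance turned to 27 higher and 21 lower with library totals, and to 25 and 20 on both FPKM scales. SPRY2 was the gene whose 6 neighbours all fell, with a median log2 fold change of -1.88 and a range of -3.95 to -0.85. NDFIP2, an adaptor of ubiquitin ligases 779.9 kb from SPRY2, fell from 113.4 to 22.6 CPM, and SLITRK5, a neuronal adhesion gene at 7330 kb on the other side, from 33.6 to 2.17 CPM. Over chromosome 13, counted after these values were seen, 53 of 59 tested genes at higher coordinates than SPRY2 fell and 3 rose, with a median of -1.21, whereas of 158 at lower coordinates 66 fell and 48 rose, with a median of -0.12. SPRY2 thus fell in a stretch where most measured genes fell, and the part of this stretch in its fall was not tested.

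The other genes lay in mixed surroundings. Around SPRY4, ARHGAP26 and NR3C1, the glucocorticoid receptor gene, rose from 3.73 to 67.3 and from 1.12 to 20.2 CPM, while NDFIP1 and RNF14 on the other side did not pass, at log2 fold changes of 0.05 and 0.09. Around DUSP6, which itself fell, 4 neighbours rose and 1 fell, though GALNT4 and its readthrough POC1B-GALNT4, both among those that rose, may share reads. Around ETV5, 2 rose, 2 fell and 2 did not pass. SPRY1 has FGF2, the gene of a growth factor that induces Sprouty genes, among its neighbours at 499 kb, and FGF2 rose 2.07-fold.

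**Figure D4:**
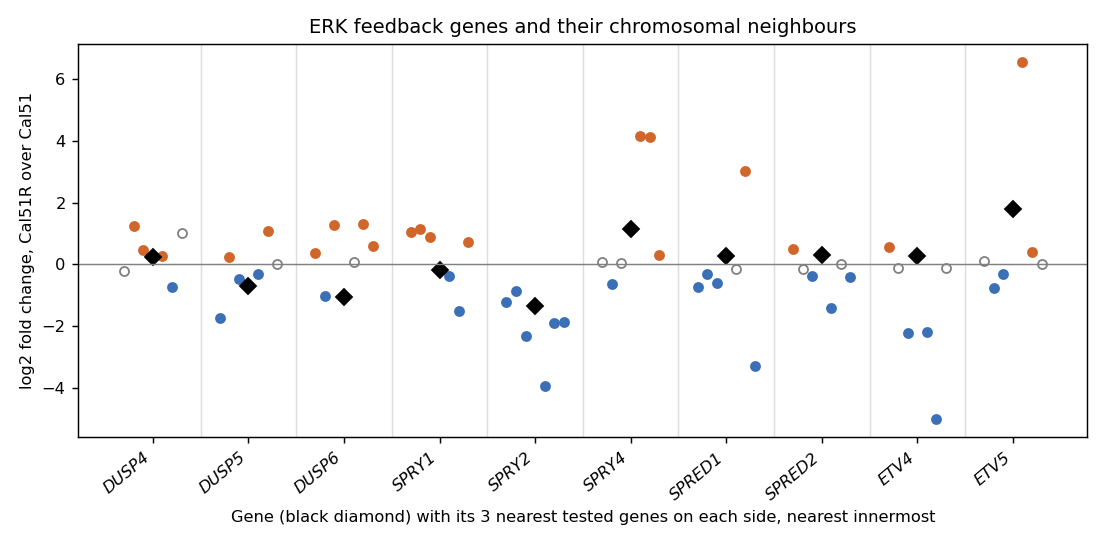
Log2 fold change, Cal51R over Cal51, of each ERK feedback gene (black diamonds) and of its 3 nearest tested genes on each side (circles, orange where they rose, blue where they fell, open where they did not pass). The 6 circles around SPRY2 lie at or below -0.85, while circles around the other genes fall on both sides of 0.

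At the top of the pathway, ligand and receptor genes changed in both directions. Counts in each list below stand beside 35.3% of all genes tested that rose and 35.5% that fell. Of 11 tested EGF and FGF family ligands 4 rose and 5 fell, and 2 rose with DESeq2, on both FPKM scales or without Cal51R replicate 2. The ligands of the EGF receptor EREG and AREG fell from 30.2 ± 2.40 to 0.537 ± 0.159 CPM and from 4.16 ± 0.453 to 0.219 ± 0.0844 CPM, and HBEGF, looked up after its values were seen, fell 5.19-fold. FGF2 and FGF18 rose from 67.4 ± 4.50 to 139.3 ± 13.1 CPM and from 41.6 ± 0.194 to 65.8 ± 3.69 CPM. Of 11 receptors 4 rose and 5 fell. MET, the receptor for hepatocyte growth factor, fell from 131.4 ± 12.8 to 0.766 ± 0.0328 CPM and FGFR3 fell 4.12-fold. ERBB4, a neuregulin receptor, rose from 3.47 ± 0.458 to 66.7 ± 5.64 CPM and ERBB3 rose 1.53-fold. EGFR, looked up after its values were seen, fell 1.63-fold, from 162.4 ± 19.5 to 99.8 ± 8.19 CPM.

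In the kinase cascade itself, 4 of 17 tested genes rose, 7 fell and 6 did not pass, which is 64.7% changed against 70.8% of all genes. This balance turned with the scaling: 8 rose and 4 fell with library totals, and 7 rose and 4 fell on both FPKM scales. Without Cal51 replicate 2, 4 of them fell. LAMTOR3, a scaffold for MEK and ERK, rose 1.60-fold, from 38.1 ± 1.41 to 61.1 ± 2.22 CPM. KSR1, a scaffold that joins RAF to MEK, fell 8.03-fold, from 78.1 ± 1.30 to 9.72 ± 0.168 CPM, and RRAS fell 1.71-fold. MAPK3, the gene of ERK1, was at 39.0 ± 2.30 and 43.8 ± 4.10 CPM (0.17; edgeR adjusted p = 0.123). MAPK3 passed with library totals (0.37, edgeR adjusted p = 0.00176) and on both FPKM scales (0.35 and 0.36, limma adjusted p = 0.000755 and 0.000933). Without Cal51R replicate 2 the log2 fold change of MAPK3 was 0.26.

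Other negative regulators of receptors and RAS also went both ways. Of 18 tested, 8 rose and 5 fell, which is 72.2% changed against 70.8% of all genes. IL17RD, known as SEF, a feedback inhibitor of FGF signalling, rose from 6.01 ± 0.143 to 71.0 ± 4.68 CPM, and LRIG1, which promotes loss of EGF receptors, rose 4.47-fold. ERRFI1, known as MIG6, a feedback inhibitor of the EGF receptor, fell from 496.7 ± 20.7 to 137.4 ± 2.82 CPM, and RASA3, a RAS GTPase-activating gene that also lies on chromosome 13, fell 3.55-fold.

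Of the 7 other MAP kinase phosphatase genes, 3 rose, 3 fell and DUSP2 did not pass. When they were set in their known classes, after their values were seen, DUSP7 and DUSP9, the cytoplasmic ERK phosphatases of the same class as DUSP6, fell 3.45-fold and 4.72-fold. DUSP7 went from 52.8 ± 0.105 to 15.4 ± 1.17 CPM and DUSP9 from 34.5 ± 2.11 to 7.36 ± 2.34 CPM. DUSP8, DUSP10 and DUSP16, which prefer the stress kinases JNK and p38, rose 3.65-fold, 2.64-fold and 1.60-fold. DUSP1, an inducible nuclear phosphatase, fell 2.15-fold. These 6 directions were the same with library totals and on both FPKM scales.

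All 3 genes of the capicua repressor list rose. CIC, which encodes capicua, rose from 85.2 ± 5.18 to 144.5 ± 10.6 CPM (0.76 ± 0.08 on the log2 scale; edgeR adjusted p = 3.53e-07), and ATXN1, whose product binds capicua, rose from 1.98 ± 0.0826 to 51.7 ± 4.85 CPM. ATXN1L, its paralogue, rose 1.32-fold.

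**Figure D5:**
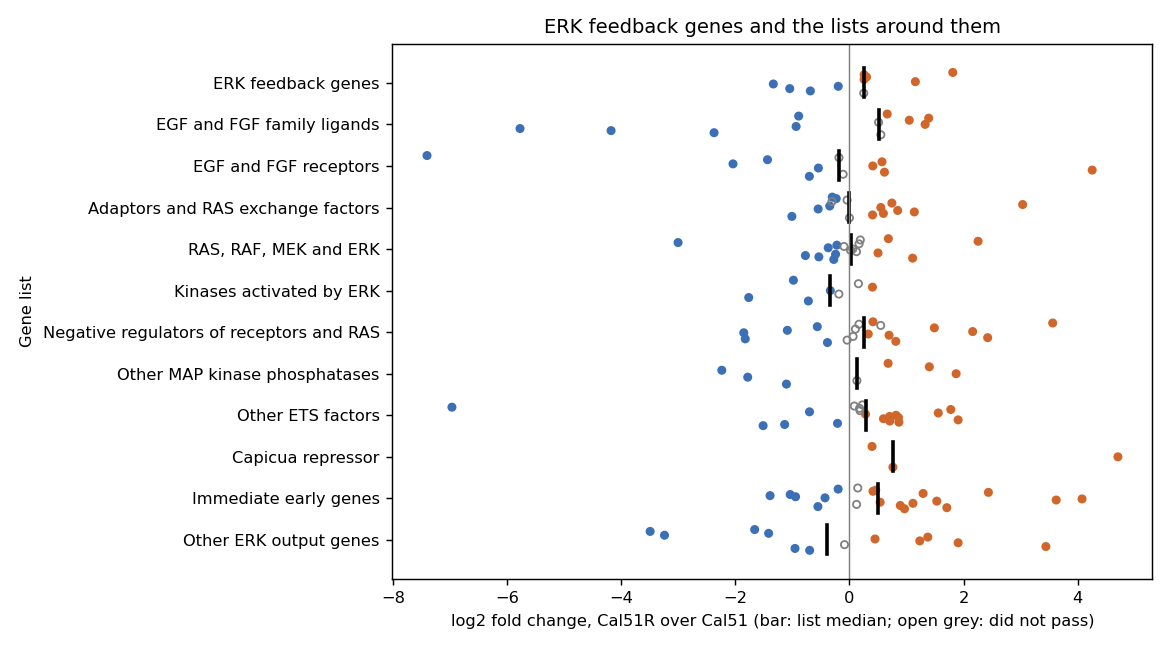
Log2 fold change, Cal51R over Cal51, of each tested gene in the ERK feedback group and the 11 lists around it, coloured by direction where it passed, open grey where it did not, with a bar at each list's median. Each list but the 3 capicua genes holds genes on both sides of 0, and FLI1 at the far left of the ETS list had no read in Cal51R.

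Further ERK-responsive transcripts were also split. Of 20 tested immediate early genes 12 rose and 6 fell, with a median log2 fold change of 0.50. EGR1 rose from 41.9 ± 2.41 to 121.1 ± 2.40 CPM and NR4A1 5.41-fold, whereas IER5 fell 2.63-fold and MYC fell from 147.3 ± 5.95 to 71.6 ± 2.42 CPM. FOS and JUNB, looked up after their values were seen, rose 1.95-fold and 2.16-fold. Of 12 other ERK output genes 5 rose and 6 fell, with a median of -0.39. ETV1 rose 3.75-fold and LIF, a cytokine gene, 2.59-fold. HMGA2, a chromatin architecture gene, fell from 1182 ± 41.0 to 104.7 ± 1.17 CPM and PLAUR, the urokinase receptor gene, 9.48-fold. PHLDA1 and EPHA2, which with DUSP4, DUSP6, SPRY2, SPRY4, ETV4 and ETV5 enter published scores of ERK output, fell 1.62-fold and 1.94-fold. EPHA4, a receptor gene of the same scores, rose from 0.132 to 1.52 CPM, the first of these under the limit of detection. CCND1, of the same scores, was at 325.6 ± 11.7 and 306.4 ± 2.00 CPM and did not pass (edgeR adjusted p = 0.284).

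By the distance between centred log2 CPM over the 4 libraries, the genes most like ETV5 among 10207 at a mean of 10 CPM or more were ARMCX2, IGFBP3 and CSF1, at distances of 0.0383, 0.0604 and 0.061. Their log2 fold changes were 1.84, 1.76 and 1.79. Among the 3 genes most like SPRY2 were WNT7B and CORO2A, at 0.0487 and 0.0506, with log2 fold changes of -1.30 and -1.40. With 4 libraries in 2 lines, this likeness is mostly that of the difference between the lines.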

How the data were processed

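Per the submitters' processing notes, HISAT2 2.1.0, Bowtie2 2.2.5, RSEM 1.2.8 and DESeq were used with hg38, with no role stated for any of them. The authors deposited expected counts for each gene, called read counts in the file headers and not whole in many rows. The authors' TPM values served to compare genes, and the FPKM values the authors deposited served in alternatives. Columns were assigned to libraries by their titles. The symbols of all 10 genes matched.

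Expected counts were rounded. The test was edgeR 4.0.16 (R 4.3.3), quasi-likelihood, with a model of the line alone, TMM factors and filterByExpr at a minimum count of 10, adjusted by Benjamini-Hochberg over 13674 genes. SE is the log2 fold change over the root of F. The fitting function was tested on simulated data. Intervals and the limit of detection cover counting or replicate error only. The 2 libraries of each line were not duplicates of one another (chi-square per gene 4.50 and 6.91). Gene positions are spans from RefSeq for GRCh38.p14, the assembly named hg38, matched on gene ID for 99.7% of genes.

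The genes and lists were chosen with earlier results of these data known. The naming rule took the 10 genes, from each list up to 2 genes each way with the smallest p and a mean of at least 1 CPM, MAPK3, CIC, the nearest 3 neighbours on each side, and the 3 most alike genes (log2 CPM, prior count 2). A few genes named by this rule are left unreported. Alternatives were RLE factors, library totals, DESeq2 1.42.0, no filter, 5 CPM in 2 libraries, limma 3.58.1 on log2(FPKM + 1) and log2(FPKM + 0.1) for genes with at least 1 FPKM in 2 libraries, each library left out in turn, and a block for the replicate number. The pseudocount understates the change of low genes.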

Additional observations from a re-analysis of the deposited data

How the results depend on the processing

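ETV5, SPRY4, SPRY2, DUSP6 and DUSP5 kept their direction and their call in all 12 alternatives, with log2 fold changes of 1.78 to 2.01, 1.07 to 1.36, -1.40 to -1.10, -1.06 to -0.82 and -0.71 to -0.46. Over the 10 genes, 102 of 120 repeated tests kept direction and call, 14 lost the call, 3 gained it, and SPRY1 changed sign once, to 0.002 with library totals. The cause was not tested. Of the 10 genes, 3 to 4 rose and 3 to 4 fell when 1 library was left out, against 5 and 4; a line left with 1 library is assumed to vary like the other. With library totals and on both FPKM scales 6 rose and 3 fell. In these 3 settings 72.3%, 73.7% and 73.3% of all genes passed, and 64.7%, 63.7% and 63.6% of those were higher. Deviations of same-numbered libraries from their line means had a correlation of r = -0.156. With 2 libraries per line, crossed pairs give the same r with the opposite sign. This value therefore cannot show whether the numbers pair the libraries. A replicate block left 4 genes higher and 3 lower, without calls for SPRY1 (edgeR adjusted p = 0.108) and SPRED1 (0.0553), and 8905 calls in all. Crossing the pairs, an alternative chosen after seeing the data, left 5 and 4, and 10657 calls in all. As shares of read counts, not per length, the change of share from Cal51 to Cal51R was 3.69 percentage points for DUSP4, 3.64 for DUSP5, -18.6 for SPRY2, 19.7 for SPRY4, -25.8 for ETV4 and 25.8 for ETV5, against 2.16, 4.74, -20.0, 13.8, -21.9 and 21.9 of TPM. The share of SPRY1 changed sign, to -1.04 from 6.18. Among 125 other named genes and neighbours, 0 of 1485 repeated tests reversed a call, 48 lost it and 23 gained it. DUSP4, at 121 to 175 reads, had the widest SE of the 10 genes, 0.15.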

Other observations

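Adaptors, kinases below ERK and the wider ETS family also changed in both directions. Of 15 tested adaptor and RAS exchange factor genes 7 rose and 5 fell, against 2 that fell with library totals and on both FPKM scales. RASGRP1, an exchange factor for RAS that lies 131 kb from SPRED1, rose from 1.56 ± 0.231 to 12.9 ± 0.066 CPM, and the adaptor gene GAB2 rose 1.80-fold. SHC1, which links receptors to GRB2, fell from 174.0 ± 4.06 to 86.4 ± 6.23 CPM, and FRS2, the adaptor of FGF receptors, fell 1.46-fold. Of 7 tested kinases activated by ERK, 1 rose and 4 fell; 2 rose with library totals, on both FPKM scales or without Cal51R replicate 1. RPS6KA2, of the RSK family, fell 3.40-fold and MKNK2, which phosphorylates the translation factor eIF4E, 1.98-fold. RPS6KA5 rose 1.32-fold, a call lost with DESeq2 (adjusted p = 0.0818), without Cal51 replicate 2 (edgeR adjusted p = 0.0903) and without Cal51R replicate 2 (edgeR adjusted p = 0.137).

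Of 19 tested ETS factor genes outside ETV4 and ETV5, 10 rose and 5 fell, with a median log2 fold change of 0.28, and 3 fell with a filter of 5 CPM, on both FPKM scales or without Cal51 replicate 1. The epithelial factors ELF3 and EHF rose from 72.3 ± 3.18 to 212.7 ± 18.6 CPM and from 19.7 ± 1.98 to 67.1 ± 4.48 CPM. ETS1 fell from 201.4 ± 13.6 to 70.4 ± 5.85 CPM and ETS2 from 34.6 and 35.7 to 17.2 and 14.8 CPM. FLI1 went from 17 and 13 reads in the Cal51 libraries to 0 in both of Cal51R, at least 5.35-fold lower against 3 counts per library, and the list's median was the same with FLI1 at this bound.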
